A study of Mus musculus with 24 samples.

Results

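The cells described here are untreated Ku70-/- mouse embryonic fibroblasts and the same cells 4 hr after the start of a 1 hr exposure to 20 mM potassium bromate (KBrO3), an oxidizing salt. Members were chosen by the array titles, and they are 3 KBrO3 4 hr arrays and 3 Control arrays, 6 of the 24 arrays of the series. KBrO3 was washed off after 1 hr and the cells were given 3 hr in fresh medium before RNA was taken. Control cells received no KBrO3 and no bisphenol A (BPA), and their titles carry the same 4 hr mark. Both groups are immortalized fibroblasts labelled Ku70-/- (Ku70 is the product of Xrcc6), so that the deletion is shared and its own effect cannot be read from this comparison. Each array was hybridized with Cy3-labeled RNA of 1 biological replicate, but nothing states how far the replicates of this single cell line were apart, and the p-values measure only the spread between these samples. KBrO3 alone at 24 hr, and KBrO3 with 150 µM BPA before, during and after the exposure at 4 hr, 3 arrays each of the same set, are used only to show how the 4 hr values stand beside them.

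KBrO3 oxidizes guanine and other bases of DNA in cells, and glutathione takes part in its conversion to the reactive species. Base excision repair removes most oxidized bases, while Ku70, with Ku80, holds broken DNA ends for nonhomologous end joining. Oxidants and electrophiles also modify KEAP1, which releases the transcription factor NRF2, and NRF2 with a small Maf protein then binds antioxidant response elements near genes of glutathione and thioredoxin metabolism. Damaged proteins release HSF1 to heat shock elements, phosphorylation of eIF2α raises ATF4, and MAP kinases drive the immediate early genes.

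A normalized signal is here the log2 of the processed spot signal minus the 75th percentile of its array. The 3 control arrays had 62.9% to 65.1% of spots well above background and the KBrO3 arrays 60.5% to 62.2%. Signals of tested probes correlated at 0.994 to 0.995 between control arrays, at 0.996 to 0.997 between KBrO3 arrays and at 0.935 to 0.939 between the groups. Of the 25583 probes that were well above background on all arrays of either group, 1609 passed through the controls alone and 807 through KBrO3 alone. They represent 13348 protein-coding genes of the 18442 on the array, each by its brightest tested probe. All 11 fibroblast markers were detected in all 6 samples, and their summed signal on the log2 scale was 10.9 in the controls and 10.7 to 10.8 after KBrO3. Of the markers of other cells, Pecam1, Cdh5 and Emcn (endothelium), Ptprc and Itgam (leukocytes), Cdh1 and Cldn4 (epithelium) and Myog, Myf5, Des and Ckm (muscle) were not well above background on any of the 6 arrays, whereas Tek, Vwf, Cd14, Cd68, Krt19 and Acta1 were on all 6. The summed epithelial markers ran from −0.07 to 0.08 in the controls and from 0.80 to 0.81 after KBrO3, with 2 of 6 and 1 of 6 markers above background on all arrays of the group, and the summed endothelial markers from −2.43 to −2.08 and from −1.87 to −1.67, with 2 and 3 of 6 above background. The epithelial sum was mostly Krt19, by far the brightest of the 6, with a log2 fold change of 0.87. The other detected member, Krt18, had −0.57. The summed macrophage markers (1.37 to 1.43 and 1.33 to 1.40) and myogenic markers (−1.05 to −0.72 and −1.06 to −0.73) overlapped, with 2 and 3 of 6 and 1 and 2 of 6 above background, though Cd68 was 2.25 higher on the log2 scale after KBrO3, and the fibroblast marker Pdgfrb had a log2 fold change of −1.60. The part of other cells in the results below was not tested. In bulk RNA, fewer cells of a kind and less RNA per cell cannot be told apart. Xrcc6 gave 0.02, 0.06 and 0.21 in the controls and −0.60, −0.54 and −0.59 after KBrO3, well above background on all 6 arrays and, in the controls, close to the 75th percentile of the array. The sources used here do not state which part of the gene is deleted, and no cells with an intact gene were analysed here, so the probe does not check the genotype.

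KBrO3 altered 4514 of the 13348 genes at 4 hr, of which 2120 were higher and 2394 lower than in untreated cells. A gene was called when limma's Bonferroni-adjusted p was below 0.01 and its fold change beyond 1.5. This background is 15.9% of all genes called higher and 17.9% called lower, and the values of the 2 groups did not overlap for 83.7% of genes. By measured signals the rises reached further than the falls. Beyond 8-fold there were 118 genes higher and 27 lower, and beyond 32-fold 19 genes were higher and 1 was lower. Of the higher genes, 54 lacked a detected spot in all 3 controls, and of the lower genes 75 lacked one in all 3 KBrO3 samples. The counts of large folds do not leave such genes out, and folds that rest on signals near background depend on the background correction. The median log2 fold change of all genes was 0.00, and each list below is read against it. Controls 1 and 2 lay on 1 slide, and control 3 on the slide that held the 3 KBrO3 arrays. Within the shared slide, with the spread pooled over the set, 2611 genes were called, 1333 higher and 1278 lower, and 2586 of them were among the 4514. Spiked-in E1A RNA stood higher above the 75th percentile after KBrO3 (3.18, 3.20 and 3.24) than in the controls (2.83, 2.53 and 2.79). Scaled to those spots, every value shifts by about −0.49 on the log2 scale and the split of calls becomes 503 higher and 2104 lower (19.3% higher, against 47.0%), so the directions below are relative to the bulk of the genes on an array.

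**Figure D1:**
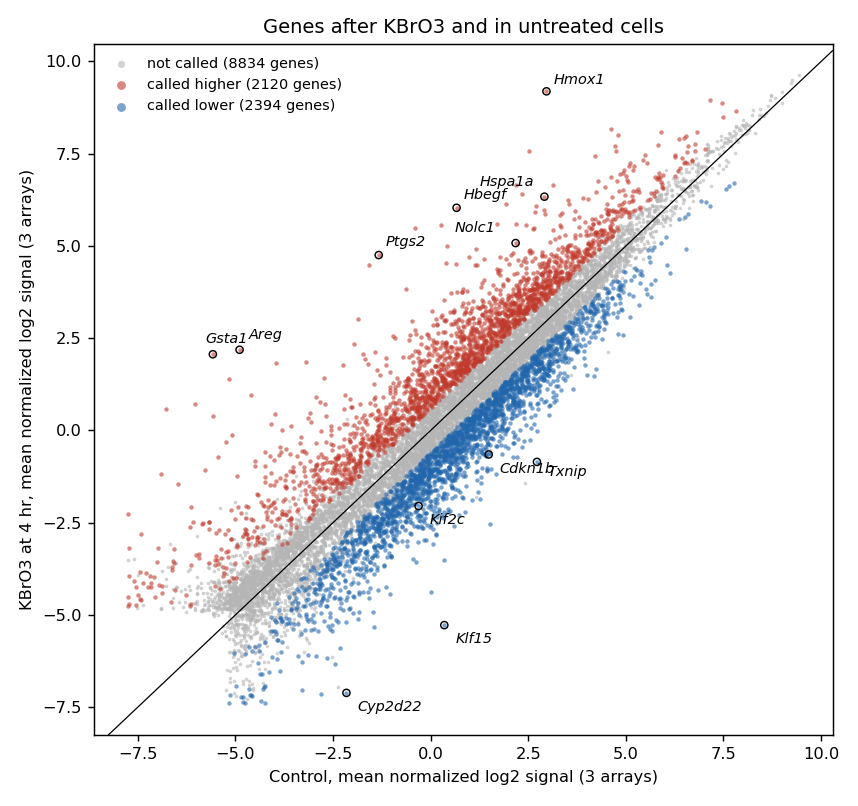
Mean normalized log2 signal of 13348 genes in 3 control arrays (horizontal axis) and 3 KBrO3 4 hr arrays (vertical axis). Red points are the 2120 genes called higher, blue points the 2394 called lower and gray points are not called; the line marks equal signal, and Gsta1, Areg, Ptgs2 and Hmox1 lie farthest above it among the labeled genes and Klf15 and Cyp2d22 farthest below.

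NRF2 target genes rose as a group. Of 31 measured NRF2 targets, 23 were higher and 0 lower, with a median log2 fold change of 1.41 (spike-in scaling, 14 and 0). Hmox1, which encodes the enzyme that breaks down heme (probe at chr8:73642229-73642288 in mm7), gave 2.94, 2.90 and 3.06 in the controls and 9.19, 9.13 and 9.25 after KBrO3. The groups were far apart, and Hmox1 rose 74.8-fold (log2 fold change 6.22 ± 0.06 (SE), limma adjusted p = 2.7e-15). Gsta1, an alpha-class glutathione S-transferase, read −5.42, −5.61 and −5.70 in untreated cells, where 1 of 3 arrays was well above background, and 2.09, 2.06 and 2.05 after KBrO3. The neighboring family member Gsta2 rose as well, from −6.02 ± 0.83 to 0.71 ± 0.03 (SD, n = 3), but the 2 genes are close paralogs, and how far each probe also binds the other's transcript was not tested. Over the 28 bases that the 2 probes have in common, 27 are identical, and the capitals mark the longest run shared by both 60-base probes:
Gsta1: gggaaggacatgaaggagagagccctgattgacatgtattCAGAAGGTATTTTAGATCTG
Gsta2: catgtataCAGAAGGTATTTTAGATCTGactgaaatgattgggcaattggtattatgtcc

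Gclc, the catalytic subunit of the rate-limiting ligase of glutathione synthesis, read 0.16, 0.30 and 0.35 in the controls and 5.59, 5.58 and 5.56 after KBrO3, a rise of 39.5-fold (limma adjusted p = 2.1e-15). Its modifier subunit Gclm rose 11.7-fold and Slc7a11, the importer of cystine, 32.8-fold. Slc7a11 values were −3.20, −3.06 and −3.30 before and 1.87, 1.81 and 1.87 after, and its other 3 probes gave 4.51 to 5.12 on the log2 scale. In the thioredoxin branch, Srxn1, which repairs overoxidized peroxiredoxin, rose 33.2-fold and thioredoxin reductase Txnrd1 11.6-fold. Nqo1, a quinone reductase that often stands for this pathway, moved far less, from 0.89 ± 0.03 to 1.94 ± 0.03 (SD, n = 3), or 2.07-fold. Sqstm1, an autophagy receptor that also binds KEAP1, rose 4.53-fold.

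The genes that control NRF2 changed too. Of 11 measured regulators, 6 were higher and 0 lower (spike-in scaling, 2 and 1). Nfe2l2, the gene for NRF2, rose 2.56-fold, its partners Maff 4.01-fold, Mafk 3.86-fold and Mafg 2.21-fold, and Bach1, the repressor that competes for the same elements, 3.24-fold. Keap1 was not called, at −0.70 on the log2 scale, but was called lower after quantile normalization, with spike-in scaling, with slide as a random block and at the Benjamini-Hochberg threshold. The constitutive antioxidant enzymes were rarely called. Only 1 of 20 was higher and 1 lower. These were Prdx6, a peroxiredoxin (4.8-fold higher), and Msrb2, a mitochondrial methionine sulfoxide reductase (2.67-fold lower). Superoxide dismutase Sod2 was at −0.03, catalase (Cat) at −0.12 and Gpx1 at −0.43 on the log2 scale, none called. Promoters of 2 induced genes are shown, since each holds the antioxidant response element core TGACNNNGC or its complement, given in capitals. They are 120-base stretches around the element, read 5′ to 3′ on the gene's strand from the RefSeq start windows of GRCm38.p6, Gclm from chr3:122245387-122245506 on the plus strand and Txnrd1 from chr10:82859056-82859175 on the plus strand:
Gclm: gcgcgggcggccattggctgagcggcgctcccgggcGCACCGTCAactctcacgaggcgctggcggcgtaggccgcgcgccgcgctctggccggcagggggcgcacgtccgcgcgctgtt
Txnrd1: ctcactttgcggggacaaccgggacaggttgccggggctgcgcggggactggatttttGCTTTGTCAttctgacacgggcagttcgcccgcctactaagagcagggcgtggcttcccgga

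**Figure D2:**
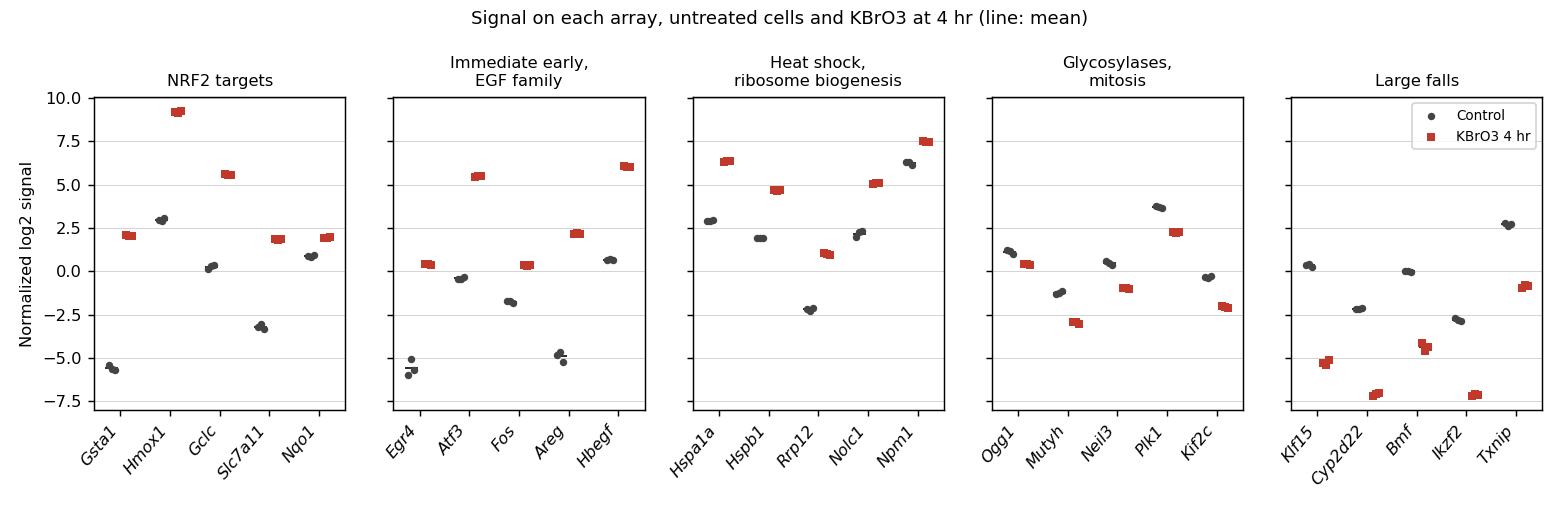
Normalized log2 signal (vertical axis) of 25 genes on each of 3 control arrays (dark circles) and 3 KBrO3 4 hr arrays (red squares), with a line at each mean. The genes drawn were all called, and no called gene overlapped between the groups, so their lack of overlap follows from that choice (83.7% of all genes did not overlap). Replicates of 1 group lie close together except for genes near background such as Egr4.

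Chaperones rose as a group. Of 22 heat shock genes measured, 19 were higher and 0 lower, and the list median on the 3 KBrO3 arrays was 1.36, 1.25 and 1.36 above the control mean. With spike-in scaling 6 stayed called. The 3 that were not called are the factors Hsf1 (0.40) and Hsf2 (0.30) and Hspa4l (−0.13), named after their values were seen. Hspa1a, the inducible HSP70, read 2.90, 2.91 and 2.94 in the controls and 6.30, 6.36 and 6.35 after KBrO3. That is 10.7-fold (limma adjusted p = 1.4e-14), and its 3 other probes gave 3.46 to 3.55 on the log2 scale, although its near-identical copy Hspa1b, not analysed here, may share this signal. The small heat shock protein Hspb1 rose 6.67-fold, the HSP110 gene Hsph1 5.48-fold and the HSP40 gene Dnajb1 3.69-fold. Of 36 proteasome subunits, 15 were higher and 0 lower. With spike-in scaling 0 were called in either direction, and the median went from 0.61 to 0.12. The rises were small, up to 2.35-fold for Psmd11, a lid subunit, with the core subunit Psmb5 at 0.21 on the log2 scale. Hspe1, which encodes the mitochondrial co-chaperonin, rose 2.66-fold. Its promoter from chr1:55088028-55088147 on the plus strand is shown for 2 overlapping heat shock elements, in capitals:
Hspe1: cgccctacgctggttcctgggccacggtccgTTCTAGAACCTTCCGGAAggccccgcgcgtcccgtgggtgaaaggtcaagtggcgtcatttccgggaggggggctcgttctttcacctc

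In the unfolded protein response of the endoplasmic reticulum 8 of 24 genes were higher and 1 lower. With spike-in scaling 2 were higher and 1 lower, and the list's median went from 0.23 to −0.26. Hspa5, the main chaperone of that compartment, rose 3.75-fold, its co-chaperone Dnajb9 4.16-fold and Ddit3, the gene for CHOP, 4.03-fold, whereas Pdia4, a disulfide isomerase, fell 1.74-fold. Among 29 ATF4 targets, 13 were higher and 0 lower. Atf3, a stress-induced repressor, read −0.45, −0.44 and −0.34 in untreated cells and 5.47, 5.50 and 5.47 after KBrO3, a rise of 59.2-fold (limma adjusted p = 1.1e-15). Atf4 itself rose 2.56-fold, asparagine synthetase Asns 2.06-fold, the glutathione-degrading enzyme Chac1 2.13-fold, Sesn2, a stress-induced inhibitor of mTORC1, 4.9-fold and Ppp1r15a, which directs dephosphorylation of eIF2α, 4.44-fold. Trib3, a pseudokinase under ATF4, was not called at 0.48. Cytosolic aminoacyl-tRNA synthetases, which charge tRNAs for translation, were higher for 13 of 20. With spike-in scaling 4 ATF4 targets and 0 synthetases were called higher. The largest rises were those of Yars (2.99-fold), Nars (2.75-fold) and Tars (2.67-fold). Of the rest 6 were not called, and the only one called lower was Dars. It was 2.04-fold lower by its brightest probe, while its other 2 probes gave −1.44 and 0.10 on the log2 scale. Slc7a11 and Asns are shown for the element TGATGNAA, the C/EBP-ATF response element that ATF4 binds, in capitals. The stretches are chr3:50443614-50443733 on the minus strand and chr6:7693210-7693329 on the minus strand in GRCm38.p6, and Slc7a11 holds the element on both strands:
Slc7a11: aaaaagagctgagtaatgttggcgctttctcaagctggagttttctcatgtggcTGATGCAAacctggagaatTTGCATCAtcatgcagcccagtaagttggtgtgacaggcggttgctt
Asns: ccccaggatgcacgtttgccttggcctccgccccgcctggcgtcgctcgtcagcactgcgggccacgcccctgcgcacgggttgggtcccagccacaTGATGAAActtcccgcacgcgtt

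Ribosome biogenesis held the highest share of members called in 1 direction among the 45 lists. Of 47 measured genes for RNA polymerase I and ribosome assembly factors, 45 were higher and 0 lower. Their median stood at 0.00, 0.00 and 0.02 relative to the control mean on the control arrays and at 1.94, 1.99 and 1.97 on the KBrO3 arrays. The groups did not overlap for any of the 47, beside 83.7% of all genes. The same held for every measured heat shock, proteasome and cholesterol synthesis gene. Rrp12, a factor of small and large subunit export, rose 8.94-fold from −2.16, −2.28 and −2.12 to 1.03, 0.98 and 0.91. Wdr43, a part of the small subunit processome, rose 7.95-fold, the nucleolar phosphoprotein gene Nolc1 7.47-fold and Polr1b, the second largest subunit of RNA polymerase I, 6.24-fold. Of other nucleolar genes, Ncl (nucleolin) rose 4.26-fold, Fbl (fibrillarin) 2.68-fold and Npm1 (nucleophosmin) 2.32-fold. The 2 genes not called, named after their values were seen, were Ddx52 (0.28) and Taf1b (−1.22), of which Taf1b alone had a negative value. With spike-in scaling 29 of the 47 were still called higher and 0 lower.

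**Figure D3:**
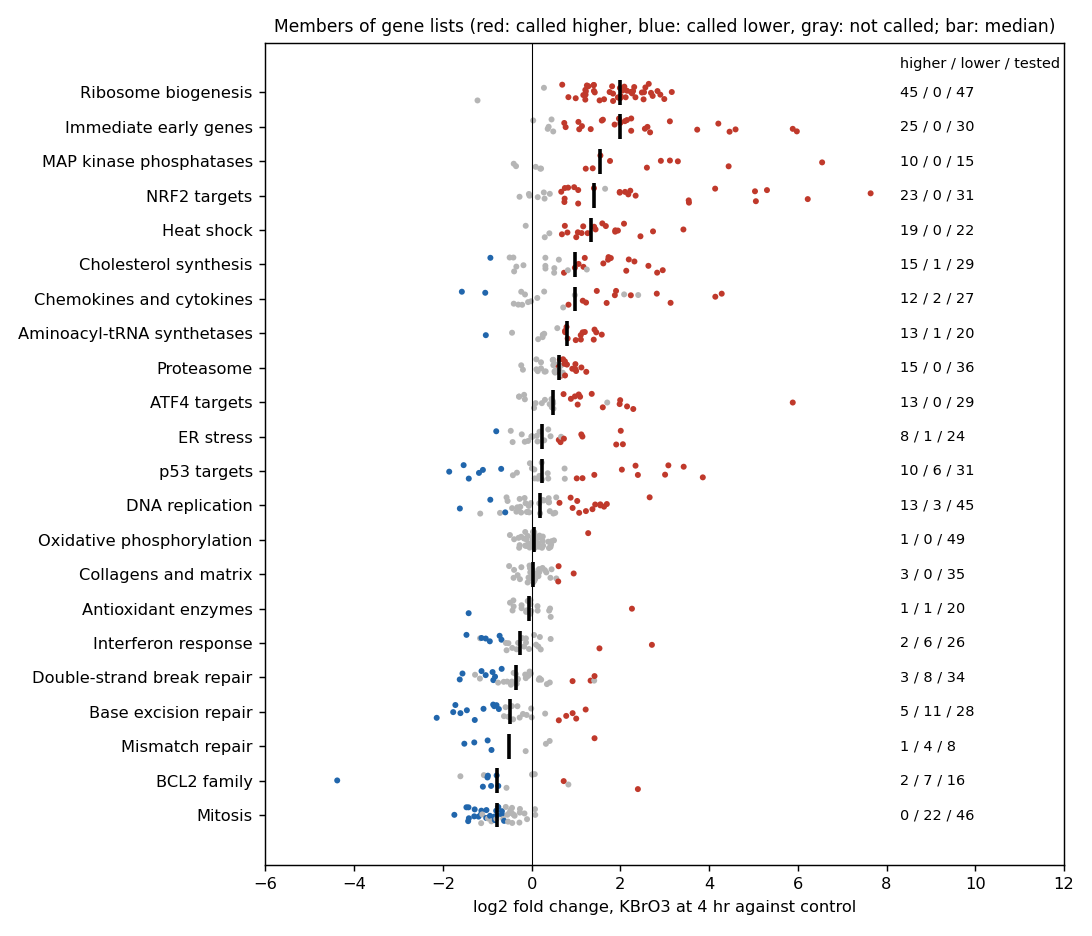
log2 fold change of KBrO3 at 4 hr against control (horizontal axis) for every measured member of 22 gene lists, with called members in red (higher) or blue (lower) and the list median as a bar. The numbers at the right give members called higher, called lower and tested. Ribosome biogenesis lies almost wholly to the right of 0 (45 of 47 called higher) and mitosis almost wholly to the left (22 of 46 called lower).

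Immediate early genes, the first genes transcribed after growth factor or stress signaling, were higher in KBrO3-treated cells at 4 hr. Of 30 measured, 25 were higher and 0 lower, with a median log2 fold change of 1.99 (spike-in scaling, 15 and 0). Arc, first known from neurons, read 0.39, 0.38 and 0.45 in the controls and 5.01, 5.01 and 4.99 after KBrO3 (24.2-fold). The orphan receptor Nr4a1 rose 18.5-fold, Jun 5.87-fold, Klf4 6.11-fold, Fos 4.29-fold and Egr1 3.92-fold. Fos and Jun together form AP-1. Egr4 was well above background on 1 of 3 control arrays (−5.98, −5.05 and −5.70) and on all KBrO3 arrays (0.43, 0.42 and 0.35). Zfp36, whose product destabilizes mRNAs with AU-rich elements, rose 2.11-fold, and its promoter at chr7:28379229-28379348 on the minus strand is shown for a CArG box, the site of serum response factor, in capitals:
Zfp36: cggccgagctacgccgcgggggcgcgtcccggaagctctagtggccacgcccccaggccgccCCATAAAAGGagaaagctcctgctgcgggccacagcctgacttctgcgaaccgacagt

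Of 15 phosphatases that switch off MAP kinases, 10 were higher and 0 lower (spike-in scaling, 6 higher and 0 lower). Dusp2, which acts on ERK and p38, read −5.29, −5.05 and −5.15 in untreated cells and 1.38, 1.45 and 1.32 after KBrO3 (93.6-fold, limma adjusted p = 4e-15), a call lost after normexp background correction, where the log2 fold change went from 6.55 to 3.52. Dusp4 rose 21.7-fold, Dusp9 9.83-fold, Dusp6 7.54-fold and Dusp1 3.41-fold. In the EGF family 5 of 13 genes were higher and 3 lower. The ligand Areg (amphiregulin) read −4.82, −4.63 and −5.22 in the controls, well above background on 2 of 3 arrays, and 2.18, 2.22 and 2.17 after KBrO3. Hbegf read 0.67, 0.69 and 0.64 and 6.06, 6.01 and 6.04, a rise of 41.3-fold, and Ereg (epiregulin) rose 16.1-fold by its brighter probe, with 0.84 on the log2 scale by the other. The ligands Epgn (1.40), Tgfa (0.37) and Egf (−1.06) were not called. Of the 4 receptors, Egfr fell 1.59-fold and Erbb2 2.29-fold, Erbb3 read −2.80, −2.77 and −2.84 in the controls and −4.50, −5.14 and −5.16 after KBrO3, where 1 of 3 arrays was well above background, and Erbb4 was at 0.15 and not called. Areg and Plk2, a polo-like kinase induced 14.5-fold, are shown for the full cyclic AMP response element TGACGTCA, in capitals, at chr5:91139479-91139598 on the plus strand and chr13:110394924-110395043 on the plus strand:
Areg: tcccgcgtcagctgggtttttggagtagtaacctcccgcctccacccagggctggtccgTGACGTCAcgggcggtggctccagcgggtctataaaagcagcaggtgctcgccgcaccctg
Plk2: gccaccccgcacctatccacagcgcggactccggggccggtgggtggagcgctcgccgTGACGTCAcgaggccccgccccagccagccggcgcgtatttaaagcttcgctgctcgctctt

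Of 27 chemokines and cytokines measured, 12 were higher and 2 lower (spike-in scaling, 7 and 2, the median going from 0.97 to 0.48). Ccl4, a macrophage chemoattractant, rose 19.5-fold, Il11 17.6-fold, Clcf1 8.77-fold, the neutrophil chemokine Cxcl1 4.71-fold, Il6 3.74-fold and Ccl2 1.78-fold. Il6 went from 0.40, 0.45 and 0.33 to 2.29, 2.31 and 2.29. Cxcl12, a chemokine that stromal cells make at rest, fell 2.97-fold from 6.12, 6.05 and 6.03 to 4.51, 4.46 and 4.51. Il18r1, a receptor chain for interleukin 18, had no control array with a signal well above background, so only a bound can be given: the treated mean was at least 67.9-fold above the dimmest signal that counts as detected, or above the probe's own signal where that was larger. Nfkbia, the inhibitor that NF-κB itself induces, rose 2.06-fold and Nfkb1 3.21-fold. Other genes of that pathway fell, Bcl3 3.9-fold, Nfkbie 3.36-fold and Birc3 3-fold, and the list as a whole had 4 of 19 higher and 5 lower. With spike-in scaling 0 of that list were higher and 6 lower, the calls of Nfkbia and Nfkb1 being lost. Of the interferon response genes 6 of 26 were lower and 2 higher, the former being 23.1% beside 17.9% of all genes. Oasl2 fell 2.19-fold and Ifit3 2.05-fold, while Oasl1 rose 6.55-fold and Rsad2 2.89-fold. In prostaglandin metabolism, the inducible cyclooxygenase Ptgs2 read −1.33, −1.24 and −1.42 and 4.73, 4.73 and 4.80, a rise of 67.7-fold (limma adjusted p = 3.5e-15). The degrading enzyme Hpgd read −2.02, −2.01 and −2.21 in the controls and −4.70, −4.90 and −4.91 after KBrO3, where 1 of 3 arrays was well above background, and the receptor gene Ptger4 was at least 8.05-fold higher.

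Base excision repair genes were called lower more often than higher. Among 28 base excision repair genes, 11 were lower and 5 higher, with a median of −0.48 (spike-in scaling, 11 lower and 0 higher). Ogg1, the glycosylase for oxidized guanine (probe at chr6:113495019-113495078 in mm7), read 1.22, 1.17 and 1.02 in the controls and 0.40, 0.44 and 0.36 after KBrO3, 1.67-fold lower (limma adjusted p = 9e-07). Mutyh, which removes adenine paired with that lesion, fell 3.29-fold from −1.31, −1.26 and −1.12 to −2.92, −2.90 and −3.03, and Neil1, a glycosylase for oxidized pyrimidines, fell 2.43-fold. Neil3, which acts on further oxidized guanine products, fell 2.75-fold from 0.59, 0.47 and 0.34 to −0.99, −0.97 and −1.01, a call lost with the median probe of the gene and with only the 2 groups in the fit. Mbd4, which removes thymine and uracil opposite guanine, fell 4.4-fold and the gap-filling polymerase Poll 3.4-fold. The uracil glycosylase Ung rose 2.01-fold and the thymine glycosylase Tdg 1.72-fold, while the uracil glycosylase Smug1 was at −0.42 and not called. Also higher were the end-processing nucleases Apex2 (2.33-fold) and Fen1 (1.9-fold). Parp1 (−0.19) and Xrcc1 (−0.59) were not called. For Ogg1 the log2 fold change within the shared slide was −0.62 and the gene no longer passed there.

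In nucleotide excision repair 6 of 24 genes were lower and 6 higher (spike-in scaling, 1 higher and 3 lower). The damage recognition genes Ddb2 (2.89-fold), Xpa (2.04-fold) and Xpc (1.61-fold) fell, and Ercc8, which serves transcription-coupled repair, rose 3.89-fold. For double-strand breaks 8 of 34 genes were lower and 3 higher (spike-in scaling, 0 higher and 7 lower). Xrcc6, which the labels give as deleted, is counted among the lower ones (log2 fold change −0.67), and its call was lost under 6 alternatives. Eme1, a nuclease of recombination intermediates, fell 3.07-fold, Rad51c 2.94-fold and the end-joining polymerase Polm 2.19-fold. Exo1, which resects DNA ends, rose 2.67-fold. Xrcc5, the gene for Ku80, had a log2 fold change of −0.04, and Brca1 of 0.16. Mismatch repair had 4 of 8 lower and 1 higher, which was Exo1 again (spike-in scaling, 0 higher and 4 lower). These shares compare with the 17.9% of all genes called lower.

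Targets of p53 were called in both directions. Of 31 measured, 10 were higher (32.3%, beside 15.9% of all genes) and 6 lower (19.4%, near the 17.9% of all genes). With spike-in scaling 7 were higher and 5 lower. Cdkn1a, the gene for the cell cycle inhibitor p21, read 0.70, 0.61 and 0.72 in untreated cells and 3.76, 3.78 and 3.74 after KBrO3 (8.47-fold, limma adjusted p = 2e-12). Plk2 rose 14.5-fold, the stress cytokine gene Gdf15 10.8-fold, the BH3-only gene Pmaip1 5.26-fold and Mdm2, which encodes the ligase for p53, 4.1-fold. Others of the list fell, the death receptor gene Fas 3.62-fold, the translesion polymerase Polk 2.67-fold and the BH3-only gene Bbc3 2.14-fold. Ccng1 (0.06) and Trp53 itself (0.75) were not called. In the BCL2 family 7 of 16 were lower and 2 higher (spike-in scaling, 4 lower and 1 higher). Bmf, a proapoptotic member, read 0.04, 0.01 and −0.05 and −4.15, −4.61 and −4.37, but its other probe gave only −0.45 on the log2 scale. Mcl1, which opposes apoptosis, rose 1.65-fold, a call that was lost within the shared slide and when any single array was left out.

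No mitotic gene was called higher and many were called lower. Of 46 measured, 22 were lower and 0 higher, and 44 had a negative log2 fold change. List medians on the KBrO3 arrays were −0.79, −0.76 and −0.73 relative to the control mean, and with spike-in scaling 13 were lower. Kif2c, a microtubule depolymerase, read −0.30, −0.37 and −0.25 in the controls and −1.99, −2.06 and −2.09 after KBrO3 (3.34-fold lower). The mitotic kinase Plk1 fell 2.77-fold, the checkpoint kinase Ttk 2.69-fold, Ccnb1 (cyclin B1) 1.71-fold and Aurka 1.59-fold. Cdc25b, a phosphatase that opens mitosis, fell 2.76-fold, whereas Cdc25a, which acts earlier, rose 3.56-fold. Genes of DNA replication were called higher more often than lower, with 13 of 45 higher and 3 lower, a lean that spike-in scaling removed (2 and 2, the median going from 0.19 to −0.30). Orc1, of the origin recognition complex, rose 6.32-fold, the ribonucleotide reductase subunit Rrm2 3.1-fold, Ccne1 (cyclin E1) 2.93-fold and the sliding clamp Pcna 2.04-fold, and thymidine kinase Tk1 fell 3.07-fold. Among 19 G1 regulators 7 were lower, including the inhibitors Cdkn2d (5.74-fold) and Cdkn1b (4.4-fold) and the pocket protein gene Rbl2 (3.29-fold), and 3 were higher (spike-in scaling, 1 higher and 5 lower). Kif2c and the spindle motor gene Kif11, 1.74-fold lower, are shown for the cell cycle genes homology region TTTGAA. Both hold it as its complement TTCAAA, in capitals, at chr4:117178773-117178892 on the minus strand and chr19:37376262-37376381 on the plus strand:
Kif2c: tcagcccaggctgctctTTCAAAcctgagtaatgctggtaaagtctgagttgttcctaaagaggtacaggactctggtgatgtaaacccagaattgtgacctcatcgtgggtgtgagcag
Kif11: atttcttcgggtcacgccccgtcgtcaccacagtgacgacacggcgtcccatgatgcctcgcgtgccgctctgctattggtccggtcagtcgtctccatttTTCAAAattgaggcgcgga

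Of 29 sterol synthesis genes, 15 were higher and 1 lower (spike-in scaling, 8 and 1). Hsd17b7 rose 7.76-fold from 0.67, 0.88 and 0.83 to 3.75, 3.76 and 3.74, and Cyp51, a sterol demethylase, 7.11-fold. Insig1, which retains the pathway's regulator in the endoplasmic reticulum, rose 4.99-fold. The list's only lower member was Srebf1, 1.9-fold, a regulator of fatty acid synthesis. Glycolysis and its regulators had 8 of 31 higher and 6 lower. Vegfa, the angiogenic factor placed on that list as a hypoxia-linked gene, rose 10.7-fold, hexokinase Hk2 4.52-fold and the glucose transporter Slc2a1 2.53-fold, while Pdk1 (2.04-fold) and Bnip3 (1.99-fold), also hypoxia-linked, fell. Nuclear genes of oxidative phosphorylation were nearly flat, 1 of 49 higher and 0 lower, with list medians of 0.08, 0.06 and 0.04 on the KBrO3 arrays.

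Collagens and matrix proteins had 3 of 35 higher and 0 lower. Col1a1 gave 7.70, 7.59 and 7.79 and 7.75, 7.64 and 7.76, values that overlap between the groups. The urokinase receptor gene Plaur rose 9.85-fold and Mmp10 10.7-fold, and the proteases Mmp11 (6.61-fold) and Adamts5 (5.73-fold) fell. In the TGF-β family, Inhba, a subunit of activin A, rose 14.9-fold and the feedback inhibitor Smad7 4.63-fold, while Inhbb (6.08-fold) and Bmp4 (3.31-fold) fell. Wnt and Hedgehog genes fell in 9 of 28 cases and rose in 1. The member that rose was the receptor Fzd9 (30.6-fold, above background on 2 of 3 control arrays), beside falls of the receptor Fzd2 (4.7-fold), the Wnt inhibitor Dkk2 (4.46-fold) and Gli2 (3.51-fold), a transcription factor of Hedgehog signaling. Among the clock genes Dbp, an output factor, fell 5.54-fold and the repressor gene Ciart rose 3.45-fold. Of 33 histone and DNA modifying enzymes 9 were lower and 5 higher (spike-in scaling, 0 higher and 9 lower). Hdac11 was at least 5.92-fold lower, the acetyltransferase gene Kat2b fell 2.76-fold and the sirtuin gene Sirt4 3.81-fold, and Sirt1 rose 2.8-fold.

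Counts in this paragraph and the next stand beside 15.9% of all genes called higher and 17.9% called lower. Several of them lie near those shares. Cytokine receptors had 7 of 22 higher and 3 lower, the KLF factors 6 of 14 and 3 (4 and 4 with spike-in scaling), and the circadian genes 5 of 18 and 3. Cry1, a repressor of the clock, rose 2.86-fold and Arntl, its activator, 2.16-fold. In the damage checkpoint 4 of 19 were higher and 3 lower, with the kinase gene Chek2 going from −1.74, −1.68 and −1.62 to −3.00, −3.05 and −3.11 (2.59-fold lower). Histone genes had 5 of 18 lower and 2 higher, the linker histones H1f4 (3.28-fold) and H1f0 (2.63-fold) being among the lower ones. Of 15 genes of insulin-like growth factor signaling 3 were lower (20.0%, near the 17.9% of all genes) and 0 higher. The insulin receptor gene Insr fell 4.43-fold from −1.66, −1.58 and −1.70 to −3.86, −3.93 and −3.59, and Igf1r fell 1.7-fold.

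Contractile genes had 2 of 22 higher and 3 lower, with calponin (Cnn1) rising 1.63-fold and leiomodin (Lmod1) falling 6.38-fold. For Notch, 2 of 13 were higher and 3 lower, and the ligand gene Dll1 fell 4.06-fold. Among 30 cytochromes P450 and carbonyl reductases 2 were higher and 5 lower, and Aldh1a3, which makes retinoic acid, rose 12.1-fold from −2.64, −2.82 and −3.03 to 0.80, 0.78 and 0.74. Other counts were those of metallothioneins and zinc carriers (4 of 14 higher, 1 lower, and 1 and 0 with spike-in scaling), autophagy and lysosome (5 of 25 and 2) and ion and pH transport (4 of 21 and 2). Matrix proteases had 6 of 19 higher and 4 lower, TGF-β and BMP genes 11 of 34 and 5, and prostaglandin genes 4 of 14 and 3. Spike-in scaling turned higher counts that exceeded the lower ones into the reverse for TGF-β and BMP genes (3 and 5), cytokine receptors (2 and 3), circadian genes (1 and 3), matrix proteases (3 and 4), glycolysis (2 and 4), prostaglandin genes (2 and 3), the damage checkpoint (1 and 2) and ion and pH transport (1 and 3).

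Klf15, a Krüppel-like factor that responds to glucocorticoids, read 0.34, 0.44 and 0.27 in the controls and −5.30, −5.38 and −5.14 after KBrO3, below the detection limit on each treated array, and was at least 46.5-fold lower (limma adjusted p = 6.1e-13). Its other probe fell by 2.21 on the log2 scale. Other members of that family rose, Klf5 4.35-fold and Klf9 3.23-fold. Ikzf2, a lymphoid transcription factor, was at least 5.25-fold lower, and Cyp2d22, a cytochrome P450, at least 8.19-fold, although its other 2 probes gave −1.42 and 0.20 on the log2 scale. Txnip, an inhibitor of thioredoxin and of glucose uptake, read 2.80, 2.64 and 2.73 and −0.94, −0.77 and −0.84, a fall of 11.9-fold (limma adjusted p = 5.4e-13) and was detected on all 6 arrays. Cstad fell 16.6-fold and the steroid sulfate carrier Slc10a6 14.6-fold. Among the genes below detection on all 3 treated arrays, Ypel4 was at least 13.4-fold lower and the interferon lambda receptor Ifnlr1 at least 3.73-fold. At the other end, the keratin gene Krt16 rose 66.6-fold from −1.51, −1.66 and −1.58 to 4.48, 4.47 and 4.46. The neuropeptide gene Nmu, well above background on 1 of 3 control arrays, read −7.92, −5.26 and −7.53 in the controls and −1.15, −1.16 and −1.23 after KBrO3, and its call was lost under 10 of 20 alternatives, including the fits without control 1, without control 3 and without any single KBrO3 array.

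Several calls given above depended on the processing. The calls of Cnn1, Mcl1, Smad7 and Xpc were lost when any 1 of the 6 arrays was left out, that of Ogg1 under 5 of those 6 fits and those of Cry1 and Pdia4 under 4. Within the shared slide Apex2, Aurka, Bach1, Bbc3, Bnip3, Ccl2, Cdc25a, Cdc25b, Ciart, Cnn1, Cry1, Dars, Egfr, Eme1, Erbb3, Hdac11, Hpgd, Igf1r, Insr, Kif11, Mcl1, Nfkbia, Npm1, Ogg1, Smad7, Srebf1, Tars, Ttk, Ung and Xpc were no longer called. With slide as a fixed block the calls of Aurka, Bach1, Ccl2, Cdc25a, Dars, Erbb3, Hdac11, Hpgd, Ifnlr1, Insr, Mcl1, Nmu, Ogg1 and Pdia4 were lost. Those of Nmu, Ogg1 and Pdia4 were also lost with slide as a random block. With the median probe of a gene in place of its brightest, the calls of Adamts5, Apex2, Ccnb1, Cdc25b, Cyp2d22, Egfr, Neil3 and Pdk1 were lost. The single other probe of Inhbb gave −0.39 on the log2 scale, that of Fas −0.09 and that of Insr −0.02, none of them called, beside the falls of their brightest probes. Other probes gave larger falls than those printed for Kat2b (−3.48), H1f0 (−3.43 and −3.41), Igf1r (down to −2.79), Kif11 (down to −2.23, not called) and Neil3 (down to −2.60).

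Background correction by normexp with an offset of 50, in place of the deposited background-subtracted signals, moved the log2 fold change of Gsta1 from 7.64 to 4.25, that of Areg from 7.08 to 4.07 and that of Dusp4 from 4.44 to 2.16. Of the genes named above, the calls of Aldh1a3, Areg, Arntl, Asns, Aurka, Bbc3, Bcl3, Bnip3, Ccl2, Ccl4, Ccnb1, Cdc25b, Chek2, Ciart, Cnn1, Cry1, Cxcl12, Cyp2d22, Dars, Dll1, Dusp2, Dusp4, Dusp9, Egfr, Egr4, Erbb2, Erbb3, Fen1, Fos, Fzd9, Gdf15, Gsta1, Gsta2, H1f0, H1f4, Hdac11, Hpgd, Ifit3, Ifnlr1, Igf1r, Ikzf2, Il11, Il18r1, Insr, Kif11, Klf5, Mafg, Mcl1, Mmp10, Mutyh, Nfkbia, Nmu, Npm1, Oasl2, Ogg1, Orc1, Pcna, Pdia4, Pdk1, Plk1, Polm, Psmd11, Ptger4, Rad51c, Rbl2, Rrp12, Slc2a1, Smad7, Srebf1, Tars, Tdg, Tk1, Ttk, Ung, Xpc, Xrcc6 and Zfp36 were lost there. Spike-in scaling removed those of Apex2, Arntl, Asns, Atf4, Aurka, Bach1, Ccl2, Ccnb1, Ccne1, Cdc25a, Chac1, Cnn1, Cry1, Dars, Dusp1, Egfr, Exo1, Fbl, Fen1, Fos, Hspa5, Hspe1, Igf1r, Kif11, Mafg, Mcl1, Nars, Nfe2l2, Nfkb1, Nfkbia, Npm1, Nqo1, Pcna, Psmd11, Rrm2, Rsad2, Sirt1, Slc2a1, Smad7, Tars, Tdg, Ung, Xpc, Xrcc6, Yars and Zfp36. With only the 2 groups in the fit those of Atf4, Aurka, Bach1, Bnip3, Ccl2, Ccnb1, Cdc25a, Cnn1, Cry1, Dars, Dusp9, Egfr, Egr4, Eme1, Erbb3, Fen1, Gsta2, H1f4, Hspe1, Igf1r, Insr, Kif11, Klf5, Mafg, Mcl1, Mutyh, Nars, Neil1, Neil3, Nfkbia, Nmu, Npm1, Ogg1, Pdia4, Rad51c, Rbl2, Sirt4, Tdg, Ttk, Xpc, Xrcc6 and Zfp36 were lost. The causes were not tested.

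The KBrO3 response at 4 hr was set beside KBrO3 alone at 24 hr, where no 24 hr control was analysed here and slide and time cannot be told apart. Of all genes, 14.6% were higher at 24 than at 4 hr and 17.4% lower. Of the 2120 genes higher at 4 hr, 1260 were lower at 24 than at 4 hr, and of the 2394 lower at 4 hr, 1357 were higher at 24 hr. Both comparisons use the same KBrO3 4 hr arrays, so these counts are not independent. The split of calls between times is not stable, since 45.6% of the called genes were higher at 24 hr in this scaling, 59.8% after quantile normalization, 56.0% with the median and 88.8% with the spike-in spots. The list of immediate early genes was at 0.03 relative to the control mean, and 27 of its 30 genes were lower at 24 than at 4 hr. NRF2 targets were at 0.05, and ribosome biogenesis was at 0.88 with 31 of 47 lower than at 4 hr. Mitosis stood above the control mean, at 0.63, with 41 of 46 genes higher at 24 than at 4 hr, and cholesterol synthesis below it, at −0.80, with 23 of 29 lower.

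**Figure D4:**
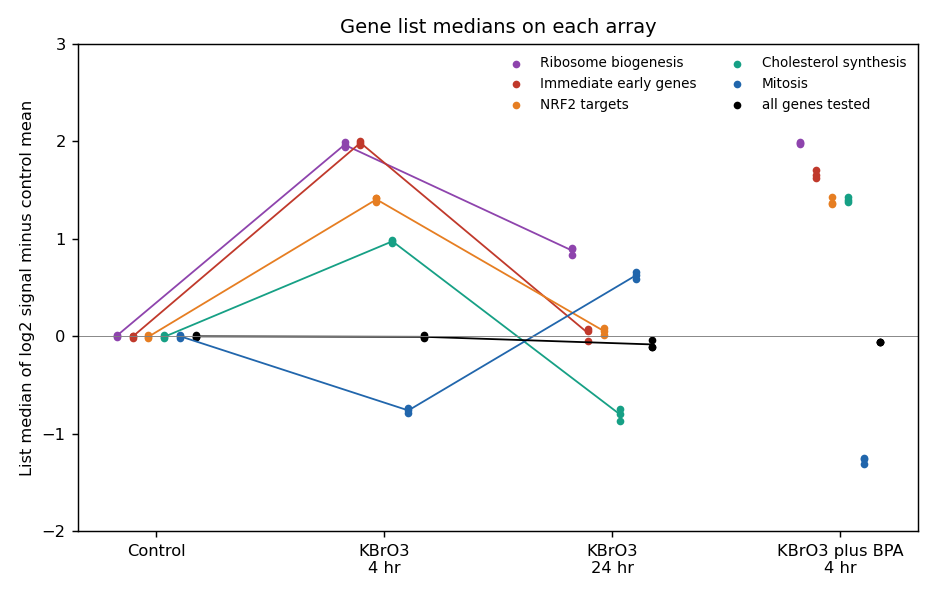
Median over the members of 5 gene lists and over all 13348 genes of the log2 signal minus each gene's control mean (vertical axis), 1 point per array, for control, KBrO3 at 4 and 24 hr and KBrO3 plus BPA at 4 hr; lines join the group means of control and KBrO3 alone. Mitosis goes from −0.76 at 4 hr to 0.63 at 24 hr and cholesterol synthesis from 0.98 to −0.80, while all genes stay near 0.

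With BPA present as well, 408 genes (3.06%) were higher and 479 (3.59%) lower at 4 hr than with KBrO3 alone. Those arrays lay on another slide, so slide and treatment cannot be told apart. With slide as a random block 297 genes were called. Scaling moved this split strongly, from 46.0% of the called genes higher to 24.8% with the median, 83.6% with the spike-in spots and 73.2% after normexp correction. Between the 2 treatments 1933 of the 2120 higher and 2078 of the 2394 lower genes were not called, which does not show that they were equal. Of the ATF4 targets 17 of 29 were higher with BPA, and the list's median was 0.51 with KBrO3 alone and 1.84 with both. Chac1 stood 2.35 and Trib3 1.78 higher with BPA on the log2 scale. For mitosis 18 of 46 genes were lower with BPA than without it.

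Promoters of the called genes were searched for 16 motifs in RefSeq windows from 250 bases before to 50 after a start in GRCm38.p6, on both strands. Of the genes called higher, 1694 had 2136 windows, and of those called lower, 1915 had 2485. Differences between the classes were small for most motifs. The GC box GGGCGG was found in 68.4% of windows of higher genes, 61.6% of lower genes and 57.6% of genes not called, against 35.7% of all 32851 windows. The cyclic AMP response element TGACGTCA was found in 3.98%, 2.41% and 2.76% (all windows 1.79%), and its shorter form TGACG, which every full element contains, in 35.2%, 27.9% and 28.1% (all windows 20.8%). The E box CACGTG was found in 11.8%, 9.18% and 9.12% (all windows 7.15%). The antioxidant response element core, which can overlap the AP-1 site TGANTCA, was in 16.3%, 12.4% and 13.8% (all windows 12.4%). AP-1 sites themselves were in 6.09%, 5.27% and 5.4% (all windows 7.81%). Heat shock elements, rare in all classes, were in 0.749%, 0.241% and 0.434% (all windows 0.603%). Other motifs were more frequent in lower than in higher genes. TTTGAA was in 10.5%, 13.5% and 12.3% (all windows 17.9%) and CCAAT in 35.0%, 39.9% and 37.5% (all windows 37.4%).

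Shares within lists are given as a description. The C/EBP-ATF element TGATGNAA was in 5 of 13 windows of tRNA synthetases (38.5%) and 8 of 27 of ATF4 targets (29.6%), against 3.97% of all windows. The antioxidant core was in 11 of 35 windows of NRF2 targets (31.4%), a share like that of ATF4 targets (33.3%), immediate early genes (31.2%) and metallothioneins and zinc carriers (31.2%). Heat shock elements were in 5 of 24 windows of heat shock genes (20.8%, all windows 0.603%) and CArG boxes in 6 of 32 of immediate early genes (18.8%, all windows 1.63%). Mitotic genes held TTTGAA in 30 of 44 windows (68.2%, all windows 17.9%) and CCAAT in 36 of 44 (81.8%, all windows 37.4%), and CCAAT was also common in windows of ER stress (90.5%), mismatch repair (83.3%), cholesterol synthesis (79.2%) and histone genes (78.9%). Ribosome biogenesis genes held the E box in 8 of 53 (15.1%), less than KLF factors (33.3%), tRNA synthetases (30.8%) or nucleotide excision repair genes (28.6%). In windows of all genes tested, TGATGNAA was in 2.38%, the antioxidant core in 13.9% and heat shock elements in 0.448%. There CArG boxes were in 1.29%, TTTGAA in 12.2%, CCAAT in 37.5% and the E box in 9.56%. The lists were written with such elements known, windows of 1 gene can overlap, and a match describes letters, not binding.

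**Figure D5:**
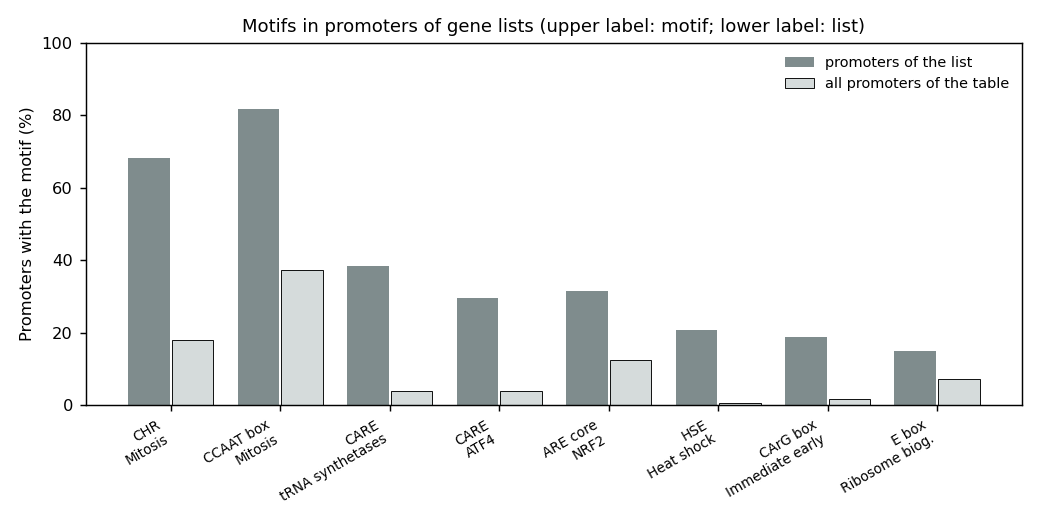
Share of promoter windows with a motif on either strand (vertical axis, percent) for 8 pairs of a motif and a gene list (dark bars) and for all 32851 windows of the table (light bars). The C/EBP-ATF element is at 38.5% in tRNA synthetases against 3.97%, and TTTGAA at 68.2% in mitotic genes against 17.9%.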

How the data were processed

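Total RNA of Ku70-/- fibroblasts was hybridized to 1-color Agilent mouse arrays. The authors deposited scanner files whose intensity values are Feature Extraction processed signals, background-subtracted per the file headers (version 9.5.3.1; the submitters' processing notes name another version). Spot detection flags came from the same files. The deposited series value table held the same signals, on a linear scale, in 675270 of 675270 entries, control spots included. Here, log2 processed signals were scaled to the 75th percentile of each array over 43379 non-control spots, and spots of a probe were averaged (41174 probes). Probes were matched to genes through RefSeq tables (32734 matched, 23075 by accession), and positions are those of the files (mm7). The 25583 probes well above background on all arrays of either group were fitted with limma 3.58.1 in R 4.3.3 over the 15 arrays of 5 groups, which share 1 estimate of the spread (median residual SD 0.101). A gene, represented by its brightest probe, was called when its p after Bonferroni adjustment was under 0.01 and its fold above 1.5, and adjusted p-values in the text are Benjamini-Hochberg values from limma. In all, 20 probes lacked a value on some array and were fitted without it. For a gene dark in 1 group, an at-least fold is printed. The code was tested on simulated data. Arrays have no read depth, and their number limits the precision.

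Genes were named by rule: the 12 largest rises and falls, key members and up to 3 largest rises and falls of each of 45 lists, Xrcc6 and genes named in the study. Hspe1, Kif11, Zfp36, Taf1b, Ddx52, Hspa4l, Hsf1, Hsf2, Egf, Tgfa, Epgn, Erbb4, Smug1, Cd68, Pdgfrb, Krt19 and Krt18 were added after their values were seen. Members and lists were chosen with earlier results of these data known. Promoter windows (GRCm38.p6) came from RefSeq. Alternatives covered scaling, background correction, filters, weights, slide, replicate number, single arrays and the threshold. A few items are not reported here.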

Additional observations from a re-analysis of the deposited data

Results flagged for a closer look

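For 17 genes of the text, KBrO3 at 24 hr lay on the other side of the control from KBrO3 at 4 hr, by over 1.5-fold, and limma called the difference between the times. Values below are mean log2 signals at 24 hr minus control, a difference that was not itself tested. They depend on the scaling, since the spike-in spots stood 2.58, 2.18 and 2.42 above the 75th percentile at 24 hr. In the controls they stood 2.83, 2.53 and 2.79 above it, so scaling to those spots would raise the values below. Of the genes that had risen at 4 hr, those of secreted signals were Il6 at −1.95, Cxcl1 at −1.55 and Ccl2 at −1.41. Sterol genes were Insig1 at −1.24, Cyp51 at −0.85 and Hsd17b7 at −0.72. The others were the unfolded protein response factor Xbp1 at −1.23, the contractile gene Cnn1 at −2.16, the retinaldehyde dehydrogenase gene Aldh1a3 at −2.24 and the glycolytic regulator Pfkfb3 at −1.42. Of the genes that had fallen at 4 hr, mitotic Ccnb1 was at 0.99, Aurka at 0.79, Ttk at 0.70, Kif11 at 0.67 and Kif2c at 0.63. Cyclin D1 (Ccnd1) was at 1.04 and the checkpoint kinase gene Chek2 at 0.63. Within the shared slide the 4 hr calls of Aurka, Ccl2, Ccnd1, Cnn1, Kif11, Ttk and Xbp1 were lost. The 24 hr arrays lay on other slides than the control and 4 hr arrays, and slide and time cannot be told apart.

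The E1A spike-in spots, which the comparisons do not use, stood 0.49 higher on the log2 scale relative to the 75th percentile after KBrO3 than in the controls. Their values did not overlap between the groups, and the cause was not tested.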

How the results depend on the processing

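Against the 4514 genes called at 4 hr, 2607 were called with spike-in scaling, 1455 after normexp correction (54.9% of them higher), 1967 with only the 2 groups in the fit and 2611 within the shared slide. Leaving out 1 array gave 3766 to 3998. Between 24 and 4 hr, against 4281, there were 1251 after normexp correction, 1475 with only the 2 groups and 6577 at the Benjamini-Hochberg threshold. Between KBrO3 with and without BPA, against 887, there were 505 with median scaling, 110 with spike-in scaling, 56 after normexp correction, 307 with only the 2 groups, 297 with slide as a random block and 2411 at the Benjamini-Hochberg threshold. Leaving out 1 array gave 529 to 587 there. Cry1 turned to −0.12 on the log2 scale after normexp correction, and Cyp2d22 to 0.20 where probes had to be above background in both groups, since another probe then represents it. Other causes were not tested. Same-numbered replicates did not deviate together (r = 0.0757, −0.0231 and 0.0976). With replicate number as a block 3809, 3531 and 558 genes were called in the 3 comparisons. After quantile normalization 39.7% of the 4587 genes called at 4 hr were higher. Of 4392 alternative values of 210 genes followed singly, 4003 kept direction and call, 351 lost the call, 11 gained it, 2 reversed and 25 changed sign with no call in either. The random slide block (correlation 0.639) was chosen after seeing the data.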

Other observations

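Probes of 1 gene often disagreed in size. Of 5802 genes with several tested probes, the dimmest probe was lower than the brightest by over 1 on the log2 scale for 324 and higher for 289, and for 13 genes the dimmest and the brightest probe were called in opposite directions. For Col1a2, a collagen gene, the log2 fold changes were −0.03 and −3.71, the latter not called. For Cyp1b1, a cytochrome P450, they were −0.67, not called, and 2.02, called. Of 3908 tested probes that match no protein-coding gene, 12.5% were called higher and 14.1% lower after KBrO3.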
